A study of Mus musculus with 30 samples.

Results

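The experiment described here asks whether the change of 4T1 mammary carcinoma cells from the primary tumour to the early lung differed between an immunocompetent and an immunodeficient host. It uses 20 of the 30 libraries of the series, chosen by their labels: 5 BALB/c tumours, 5 BALB/c DTC, 5 NSG tumours and 5 NSG DTC. DTC is the labels' name, not expanded there, for cells taken from the lung on day 7. All libraries were made from total RNA of sorted 4T1-tdTomato cells, derived from a breast carcinoma of a BALB/c mouse and labelled with the red protein tdTomato. Female mice of both strains received 200000 cells in the mammary fat pad for tumours and 500000 cells by the tail vein for lung samples. BALB/c tumours were taken on day 21 (2 libraries) or day 22 (3 libraries), and NSG tumours on day 10. Tissues were digested with collagenase, and single cells negative for DAPI and CD45 and positive for tdTomato were sorted. NSG mice lack T, B and NK cells but keep macrophages and neutrophils. The cells are syngeneic to BALB/c but not to NSG mice. The route, the organ and the number of cells changed together between tumour and lung, and the age of the tumours differed between the hosts, so these cannot be told apart from stage and host. The labels do not say whether libraries came from separate animals, and p-values measure only the spread between libraries, which may be technical.

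The quantity reported is the difference of changes: the log2 fold change from tumour to DTC in BALB/c mice minus the log2 fold change from tumour to DTC in NSG mice. A value above 0 means that a gene moved up more, or down less, in BALB/c mice. In sorted bulk samples, fewer cells with a transcript and less of it per cell cannot be told apart. It is given ± its standard error (SE, n = 5 libraries in each of the 4 groups), with a p from edgeR's quasi-likelihood test adjusted over all genes tested. A gene was called at an adjusted p under 0.05. Levels are CPM, counts scaled to a common library size.

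As background, tumour cells that reach the lung meet new matrix, new stromal cells and, in an immunocompetent host, lymphocytes and NK cells that can recognise and kill them. Interferon from T and NK cells induces antigen presentation genes in tumour cells through the STAT and IRF factors. Growth factor and stress signals induce immediate early genes, such as those of the AP-1 factors, within minutes, and E2F factors turn on DNA replication genes as cells enter S phase.

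Total counts ran from 29832098 to 65621525 per library, and 17517 to 22187 genes were detected. Pairs of libraries within a group correlated at 0.8918 to 0.9867 (log2 CPM, Pearson). The epithelial keratin genes Krt8 and Krt18 and the adhesion gene Epcam, which mark 4T1 cells, were abundant in all 20 libraries, with Krt8 at 1626.5 CPM or more. Summed lung epithelial markers ranged over 28.2 to 117 CPM in the BALB/c tumours, 159.8 to 3823 in the BALB/c DTC, 37.4 to 54.5 in the NSG tumours and 70.2 to 92.6 in the NSG DTC. BALB/c DTC libraries 1 and 2 stood apart with 3823 and 1649 CPM, of which the surfactant gene Sftpc reached 2230 CPM. Summed endothelial markers ranged over 33.83 to 62.85 CPM in the BALB/c tumours and 85.82 to 636.3 in the BALB/c DTC. In NSG mice they ranged over 52.55 to 73.93 CPM in tumours and 170.9 to 183.4 in DTC. BALB/c DTC 3, 4 and 5, at 88.63, 102.9 and 85.82 CPM, lay below every NSG DTC. Of 15 endothelial markers tested, 3 were called above 0 and 0 below, and 1 and 3 without BALB/c DTC 1 and 2. The genes of the pan-leukocyte marker list summed to 81.2 to 162 CPM in the BALB/c tumours and 94.8 to 134.9 in the BALB/c DTC. In NSG mice they summed to 63.2 to 71.9 CPM in tumours and 68.2 to 88.6 in DTC. Every BALB/c DTC was above every NSG library. Of 8 genes of this list tested, 0 were called, but 1 was above 0 with offsets and 1 below without BALB/c DTC 1 and 2. The lymphocyte genes Cd3d, Ms4a1 and Ncr1 were at 0 in 16 to 18 of the 20 libraries, and Cd3e was at 0 in 6 and at most 1.27 CPM. Of 9 T and NK cell markers tested, 2 were called above 0, the T cell receptor gene Trac (1.84 ± 0.41, adjusted p = 0.00093; group means of 1.22, 6.67, 4.48 and 6.87 CPM in BALB/c tumours, BALB/c DTC, NSG tumours and NSG DTC) and the interleukin receptor gene Il2rb (1.44 ± 0.55, adjusted p = 0.0436), which was not called with offsets (adjusted p = 0.113) or without any of 12 single libraries. Trac was thus counted in both NSG groups, where Cd3d was at 0 in every library. The part of these markers in other results was not tested. BALB/c tumour 4 had the fewest genes detected and 1032 CPM of skeletal muscle markers, against 38.3 to 269.8 CPM in the others. In BALB/c DTC 5 levels rose most with the GC content of genes (rank correlation 0.455 with the departure from the mean of all libraries, against -0.101 to 0.19 in the other BALB/c DTC and -0.613 to -0.328 in the NSG DTC).

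The change from tumour to lung differed between the hosts for many genes. Of 17774 genes tested, 2670 (15.0%) had a difference of changes above 0 and 3274 (18.4%) a difference below 0. Immediate early genes, cytokine genes, DNA replication genes and genes of oxidative phosphorylation and cholesterol synthesis had most of their calls on the upper side, and type I interferon response genes and long AT-rich genes on the lower side. Among the 2670 called genes above 0, the fitted level was higher in DTC than in tumours in BALB/c mice and lower in NSG mice for 1768 (66.2%), higher in both hosts for 781 (29.3%) and lower in both for 121 (4.5%). Among the 3274 below 0, the fitted level was lower in DTC of BALB/c mice and higher in DTC of NSG mice for 2856 (87.2%), lower in both for 296 (9.0%) and higher in both for 122 (3.7%). Calls were made on the distance between the 2 changes, which favours opposite signs, and signs were counted whatever the size of a change. Over all genes tested 20.4% had a fitted change above 0 in BALB/c and below 0 in NSG mice, 28.9% the reverse, 25.1% were above 0 in both and 25.5% below 0 in both.

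**Figure D1:**
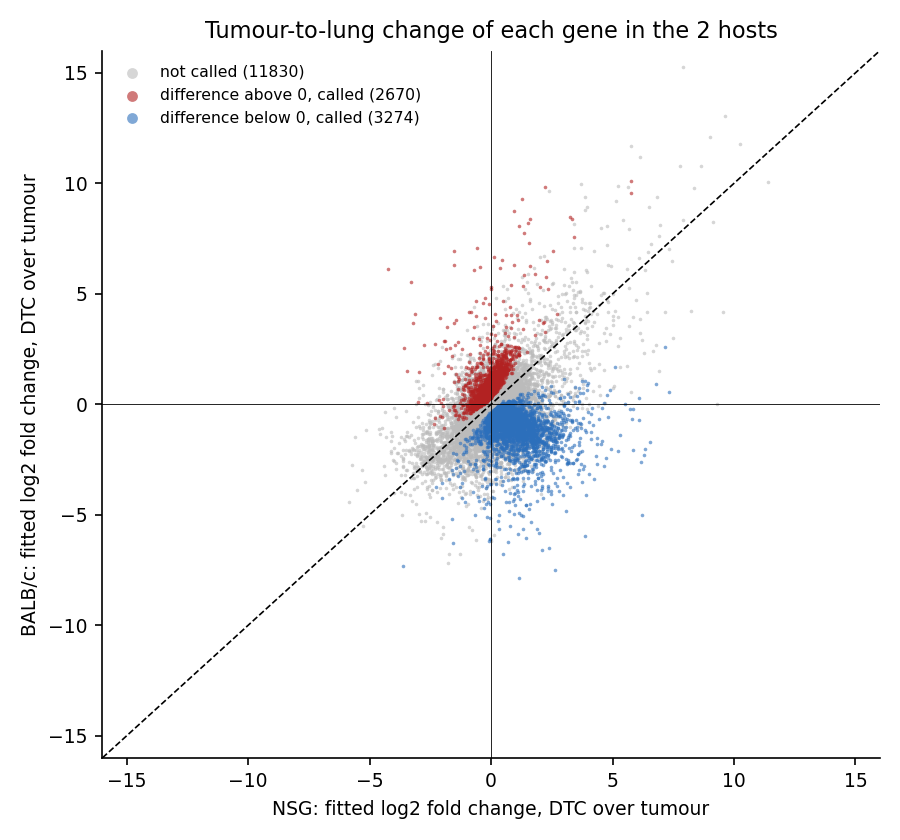
Fitted log2 fold change from tumour to DTC in NSG mice (x axis) and BALB/c mice (y axis), 1 point per gene; points on the dashed line have equal changes, and colours mark the 2670 genes called above 0 and the 3274 called below 0. The lower group lies mostly where NSG changes are above 0 and BALB/c changes below 0.

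The difference of changes followed the base composition of genes. Across 17717 genes with a known sequence, its rank correlation was 0.476 with the GC content of the exons and -0.155 with their length (genes are not independent replicates). In the fifth of genes with the lowest GC content (18.1% to 44.6%) 48.4% were called below 0 and 2.3% above 0, and in the fifth with the highest (55.6% to 86.2%) 2.1% and 30.3%. All values were therefore also fitted with offsets that remove each library's trend with GC content and length. These offsets left a rank correlation of -0.008 with GC content and gave 3022 genes above 0 (17.0%) and 1675 below 0 (9.42%), so the share of calls above 0 was 64.3% in place of 44.9%. On log2(TPM + 1) and log2(TPM + 0.1) from the deposited TPM table that share was 23.8% and 24.1%. The median over all genes was -0.05, and 0.09 with offsets, -0.16 on log2(TPM + 1) and -0.25 on log2(TPM + 0.1). Between the fits without and with offsets, 1651 calls above 0 and 1478 below 0 were shared, and 196 genes called below 0 were called above 0 with offsets. Of all 5944 calls, 2778 kept their sign and call with offsets and without each of the 20 libraries, 1453 above and 1325 below 0. Whether the trend with GC content arose in the cells or in the libraries was not tested.

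**Figure D2:**
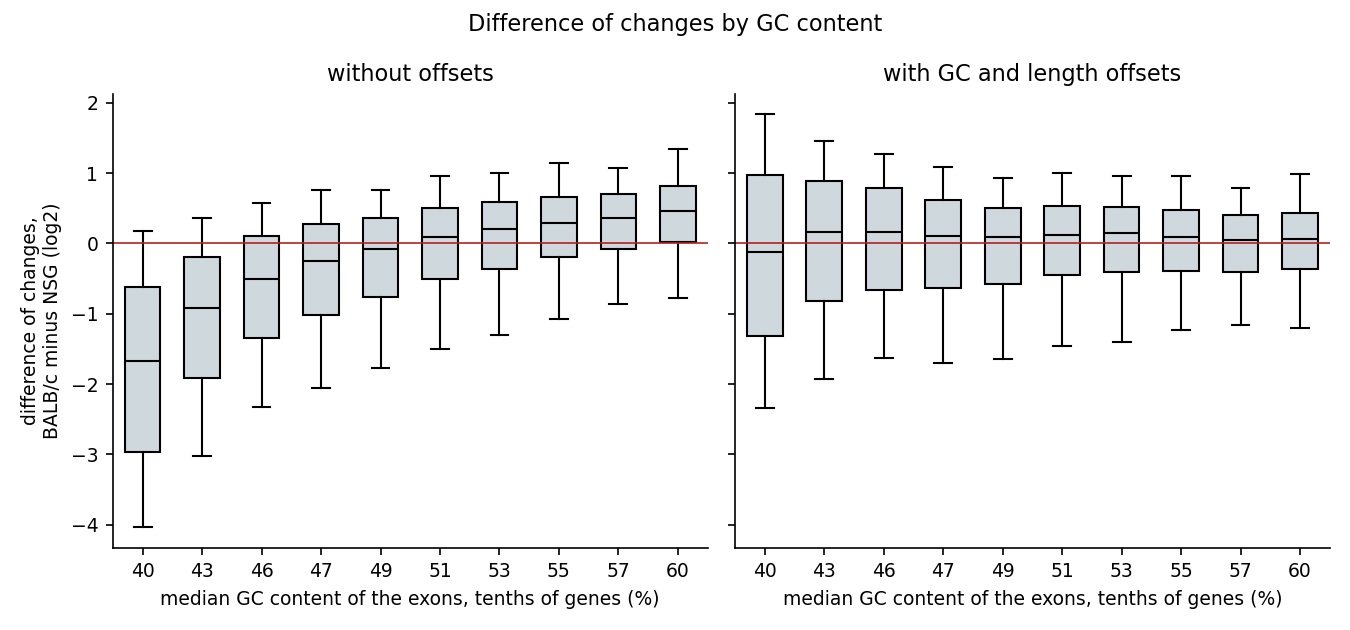
Difference of changes (y axis, log2, BALB/c minus NSG) over 10 bins of genes ordered by the GC content of their exons (x axis, median of each bin), without and with the offsets. Boxes span the quartiles with the median as a line, and whiskers the 10th to 90th percentile; the medians climb from left to right without offsets and lie near 0 with them.

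Since the difference of changes equals the host difference (BALB/c minus NSG) in DTC minus the host difference in tumours, each call can be divided by stage. Among all 2670 calls above 0, the host difference of mean log2 CPM was larger in size among DTC for 1446 (54.2%) and among tumours for 1224 (45.8%), and among the 3274 below 0 it was larger among DTC for 2651 (81.0%). The order differed in the 1453 stable calls above 0, where the host difference of mean log2 CPM was larger in size among tumours for 810 (55.7%) and among DTC for 643 (44.3%). Their median host difference was -0.46 in tumours and 0.39 in DTC. Among the 1325 stable calls below 0, it was larger among DTC for 1068 (80.6%), with a median of 0.81 in tumours and -1.69 in DTC. Over all genes tested it was larger among DTC for 58.8%.

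The genes were read in 26 lists of cell programmes, whose members called above or below 0 are plotted. A list was read against the shares of all genes called, 15.0% above and 18.4% below 0 (17.0% and 9.42% with offsets).

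**Figure D3:**
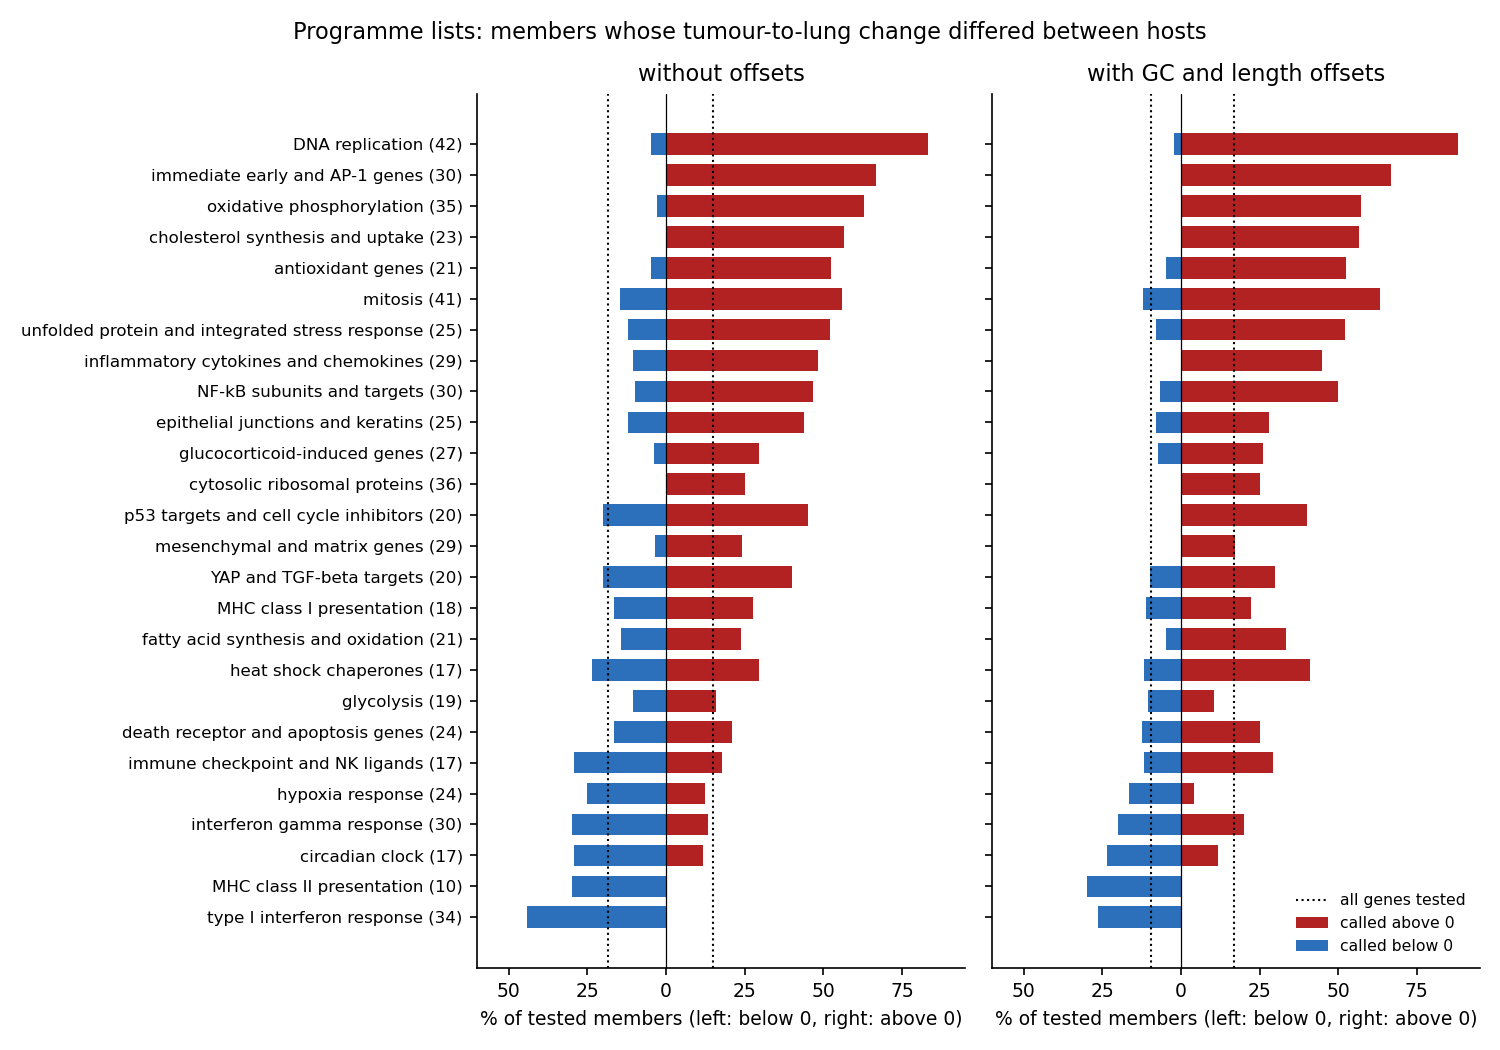
Percent of the tested members of each programme list (number in parentheses) called above 0 (red, to the right) and below 0 (blue, to the left), without and with GC and length offsets; dotted lines give the percent of all genes tested. DNA replication genes stand highest above 0 in both panels, and the type I interferon response list has members called only below 0 in these 2 fits.

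Immediate early and AP-1 genes, which encode transcription factors and phosphatases induced within minutes of a signal, had a difference above 0 for 20 of 30 members and below 0 for 0 (median 1.38). The counts were the same with offsets (median 1.13) and 18 to 22 above 0 when any 1 library was left out. Atf3 encodes a stress-induced factor of the ATF family (chromosome 1, 191170296 to 191218039 on GRCm38). Its level was 139, 133, 321, 414 and 639 CPM in the BALB/c tumours and 708, 748, 677, 759 and 1008 CPM in the BALB/c DTC. It was 2110.1, 1406, 2021, 1960.1 and 1884 CPM in the NSG tumours and 682, 592, 869, 827 and 645 CPM in the NSG DTC. Every NSG tumour lay above every other library, while the DTC of the hosts overlapped. The difference of changes was 2.62 ± 0.52, adjusted p = 0.000293. Fosb, a partner of the Jun proteins in AP-1, was at 349.7, 257, 794, 875 and 1257 CPM in the BALB/c tumours and 796, 703, 798, 652 and 1104 CPM in the BALB/c DTC. In NSG mice it was at 1969.8, 1703, 1816, 2448 and 2678 CPM in the NSG tumours and 338, 551, 534, 606 and 357 CPM in the NSG DTC. NSG tumours again lay above all other libraries, and the difference was 2.35 ± 0.52, adjusted p = 0.000878. The AP-1 genes Fos (1.49 ± 0.31), Junb (1.90 ± 0.30) and Fosl1 (2.29 ± 0.38), the growth regulator Myc (1.30 ± 0.21), the MAP kinase phosphatase genes Dusp5 (2.41 ± 0.28) and Dusp8 (2.53 ± 0.61) and the nuclear factor gene Csrnp1 (2.59 ± 0.51) were called in the same direction, with adjusted p from 5.34e-07 to 0.00191. All 7 were lower in every BALB/c tumour than in any NSG tumour. BALB/c tumours 1 and 2 were taken on day 21 and BALB/c tumours 3 to 5 on day 22. Atf3, Fosb, Fos, Junb, Dusp8 and Csrnp1 were lower in both day 21 tumours than in any day 22 tumour, while Dusp5, Fosl1 and Myc overlapped. With the day 22 BALB/c tumours alone, all of these kept their call, and of the named genes only H2-Eb1, H2-DMa and Il2rb lost it. Klf4 (0.66 ± 0.44, adjusted p = 0.258) and Egr3 (1.05 ± 0.55, adjusted p = 0.147) were not called, but limma-voom called both (1.10 and 1.61, adjusted p of 0.0183 and 0.00853), and Egr3 was also called with only the 20 libraries (1.15, adjusted p = 0.0472). The median host difference over the list was -1.29 in tumours and 0.13 in DTC.

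**Figure D4:**
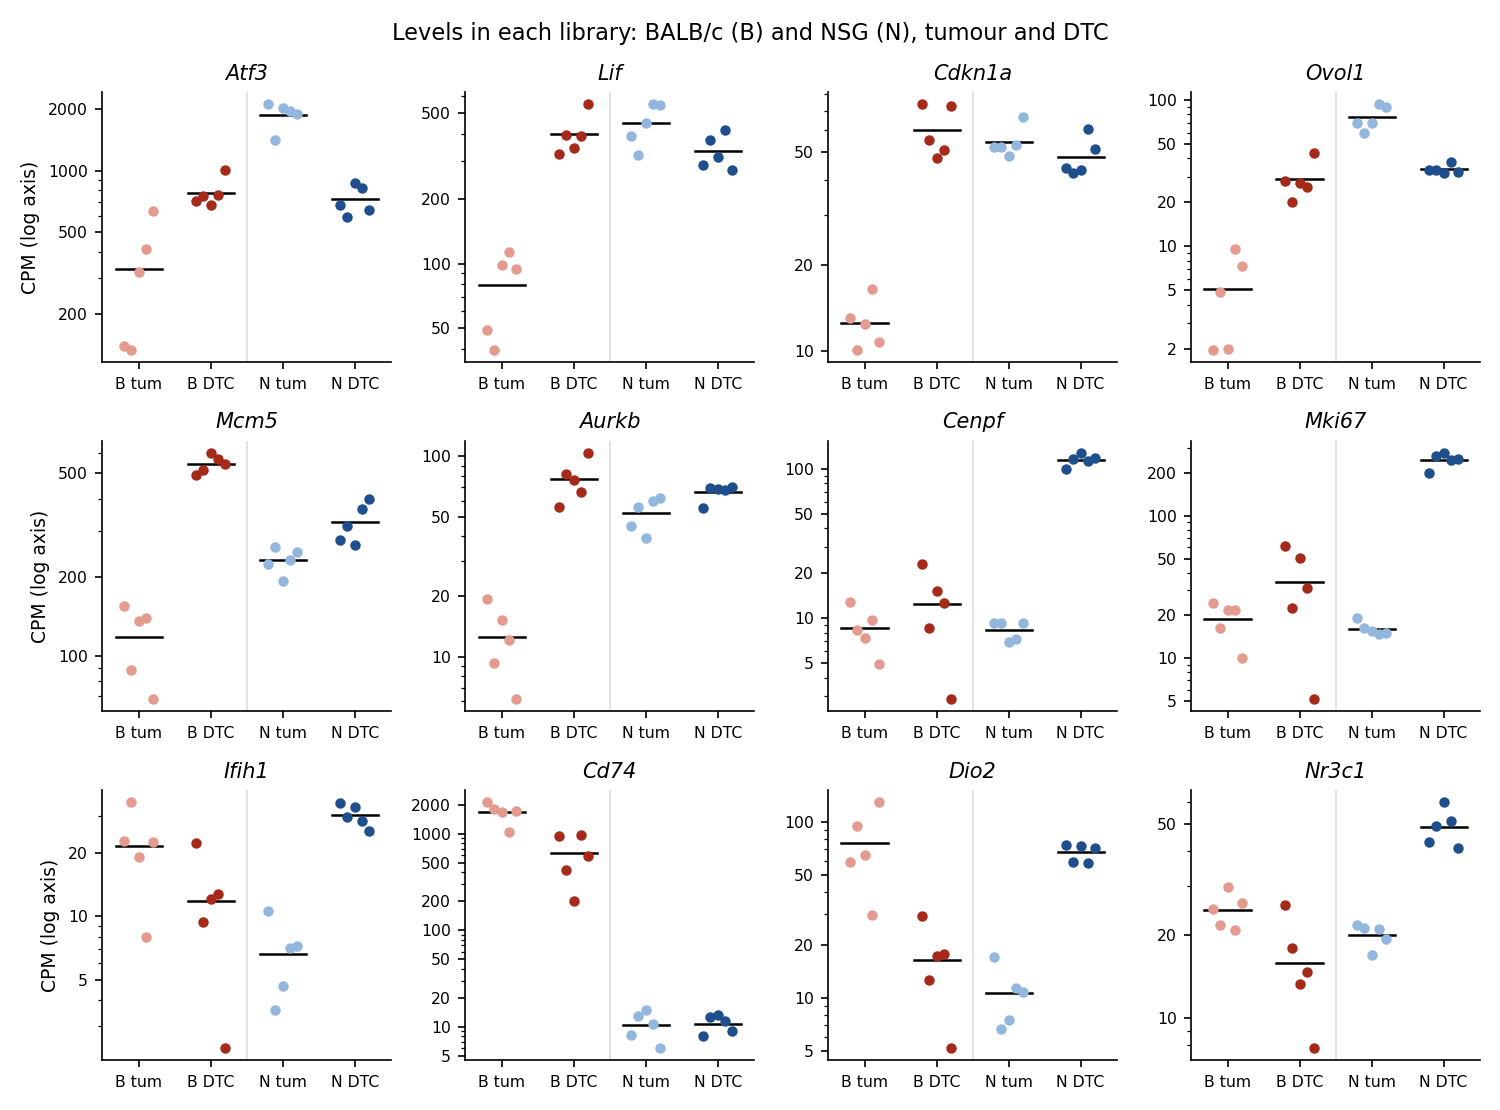
Level of 12 genes in each of the 20 libraries (CPM, log axis), with BALB/c (B) and NSG (N) tumours and DTC; points are libraries and lines group means. Atf3, Lif, Cdkn1a and Ovol1 have their lowest means in the BALB/c tumours, Cenpf and Mki67 are highest in the NSG DTC, and Cd74 is high only in the BALB/c groups.

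NF-kB subunits and targets had 14 of 30 members above 0 and 3 below (15 and 2 with offsets), and inflammatory cytokines and chemokines 14 of 29 above and 3 below (13 and 0 with offsets). Lif, a cytokine of the interleukin-6 family (chromosome 11, 4257557 to 4272514), was at 49.3, 39.7, 98.9, 113 and 94.3 CPM in the BALB/c tumours and 322, 397, 343, 392 and 549 CPM in the BALB/c DTC. It was at 389.9, 321, 449.6, 549.7 and 548 CPM in the NSG tumours and 286, 375, 311, 419.5 and 271 CPM in the NSG DTC. The 5 BALB/c tumours stood alone at the bottom, and the other 3 groups overlapped. The difference was 2.78 ± 0.43, adjusted p = 2.17e-05. Csf3 encodes G-CSF, which drives neutrophil production and is known for its secretion by 4T1 tumours. Its level was 68.2, 65.8, 43.3, 47.5 and 40.3 CPM in the BALB/c tumours and 148, 149, 123, 266 and 305 CPM in the BALB/c DTC. In NSG mice it was 196, 182, 241, 238 and 247 CPM in the NSG tumours and 108, 121, 117, 151 and 96.9 CPM in the NSG DTC. Csf3 was higher in every BALB/c DTC than in any BALB/c tumour and lower in every NSG DTC than in any NSG tumour, and the difference was 2.80 ± 0.37, adjusted p = 3.74e-06. Cxcl2, a neutrophil chemoattractant, had a difference of 2.67 ± 0.73, adjusted p = 0.00562, with group means of 5.44, 51.2, 35.7 and 53.1 CPM in BALB/c tumours, BALB/c DTC, NSG tumours and NSG DTC. The NF-kB inhibitors Nfkbia (2.19 ± 0.30) and Tnfaip3 (2.34 ± 0.45) and the subunit gene Nfkb2 (1.32 ± 0.22) were called above 0 (adjusted p of 4.81e-06, 0.000206 and 3.15e-05). Nfkb2 differed from the pattern of Lif: its tumours overlapped between the hosts, and every BALB/c DTC was above every NSG DTC. The monocyte chemoattractant gene Ccl2 was not called (1.23 ± 0.58, adjusted p = 0.106), but it was called with offsets (2.27, adjusted p = 0.00765). Summed neutrophil markers ranged over 19.8 to 219 CPM among BALB/c tumours and 22.2 to 80.6 among BALB/c DTC, against 8.40 to 16.3 among NSG tumours and 4.18 to 15.0 among NSG DTC, with 2 of 8 tested called above 0. Without the 2 BALB/c DTC libraries rich in lung markers 0 were above and 1 below 0, and without any 1 library 0 to 3 were above. Their part in these cytokine levels was not tested.

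Nfkbia and Nfkb2 are shown here with the NF-kB motif GGGANTTTC, searched on both strands of the 250 bases before the start site of RefSeq (GRCm38.p6). It was found in 17.2% of 29 promoters of the NF-kB list and in 0.941% of all 32851 promoters. Each sequence runs 5′ to 3′ on the strand of the gene, with the match in capitals (Nfkbia at chr12:55492712-55492800, minus strand, and Nfkb2 at chr19:46305473-46305561, plus strand).
Nfkbia: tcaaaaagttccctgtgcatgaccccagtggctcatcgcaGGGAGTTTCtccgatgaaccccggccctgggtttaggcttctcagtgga
Nfkb2: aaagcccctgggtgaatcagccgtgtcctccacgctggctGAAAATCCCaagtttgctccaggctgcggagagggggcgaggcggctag

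Among p53 targets and cell cycle inhibitors, 9 of 20 members were above 0 and 4 below (8 and 0 with offsets). Cdkn1a, which encodes the cell cycle inhibitor p21 (chromosome 17, 29090976 to 29100727), was at 13.0, 10.1, 12.4, 16.6 and 10.7 CPM in the BALB/c tumours and 73.7, 55.0, 47.9, 50.9 and 72.6 CPM in the BALB/c DTC. It was at 52.3, 52.1, 48.6, 53.1 and 66.4 CPM in the NSG tumours and 43.8, 42.3, 43.2, 60.2 and 51.5 CPM in the NSG DTC. As for Lif, only the BALB/c tumours stood apart, and the difference was 2.43 ± 0.26, adjusted p = 2.99e-07. Gadd45b, a stress-induced gene of the same list, had a difference of 1.93 ± 0.33, adjusted p = 5.15e-05. Ccng1, a p53 target, was called below 0 (-1.49 ± 0.28, adjusted p = 0.000112) but lay at 0.09 with offsets (adjusted p = 0.79).

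DNA replication genes formed the list with the largest share above 0, 35 of 42 members, with 2 below (median 1.04). With offsets 37 were above and 1 below 0 (median 1.30), and without the 2 BALB/c DTC libraries rich in lung markers 35 and 2, against 17.4% and 19.2% of all genes. Mcm5 encodes a subunit of the replicative helicase (chromosome 8, 75109569 to 75128439). It was at 156, 88.1, 136, 139.6 and 68.5 CPM in the BALB/c tumours and 492, 515, 597, 569 and 544 CPM in the BALB/c DTC. In NSG mice it was at 224, 262, 194, 234 and 250.4 CPM in the NSG tumours and 278, 314, 267, 366 and 398 CPM in the NSG DTC. Within each host every DTC library was above every tumour, with a wider gap in BALB/c mice, and the difference was 1.73 ± 0.21, adjusted p = 1.25e-06. Cdc45, of the same list, was at 35.2, 19.4, 22.9, 24.8 and 19.8 CPM in the BALB/c tumours and 94.2, 113, 107, 101 and 126 CPM in the BALB/c DTC. It was at 60.2, 71.7, 54.5, 60.6 and 61.5 CPM in the NSG tumours and 66.5, 72.0, 87.3, 87.7 and 98.6 CPM in the NSG DTC. Its BALB/c tumours lay below all other libraries, and the difference was 1.73 ± 0.19, adjusted p = 2.99e-07. The cyclin-dependent kinase gene Cdk1, which is counted in the mitosis list, had a difference of 1.56 ± 0.21, adjusted p = 2.88e-06. Its group means were 42.0, 136, 120.1 and 131 CPM, in the order of groups used for Cxcl2. Over the replication list the median host difference was -0.93 in tumours and 0.19 in DTC. The members below 0 were the polymerase gene Pola1 (-2.40 ± 0.64, adjusted p = 0.00461), not called with offsets (adjusted p = 0.129), and the clamp loader gene Rfc1 (-1.96 ± 0.38, adjusted p = 0.000218), both named after their values were seen.

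E2F sites are a feature of replication gene promoters. The motifs TTTCGCGC and TTTGGCGC, searched on both strands of the same 250 bases, were found in 12.8% of 39 promoters of the replication list and 0.654% of all promoters. The helicase genes Mcm5 and Mcm6 each held 2 overlapping matches, both in capitals (Mcm5 at chr8:75109316-75109403, plus strand, and Mcm6 at chr1:128359768-128359855, minus strand). Mcm6 was chosen for this match, and its difference was 0.89 ± 0.16, adjusted p = 0.0001. Pola1, called below 0, was also among the 5 genes of the list with a match.
Mcm5: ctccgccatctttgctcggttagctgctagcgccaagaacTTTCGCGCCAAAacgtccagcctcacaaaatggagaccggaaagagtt
Mcm6: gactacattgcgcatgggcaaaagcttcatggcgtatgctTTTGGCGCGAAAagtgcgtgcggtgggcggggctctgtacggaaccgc

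Mitosis genes had 23 of 41 members above 0 (56.1%) and 6 below (14.6%), against 15.0% and 18.4% of all genes (26 and 5 with offsets). The list median was 0.89, and the share below 0 was near that of all genes. Aurkb, the kinase that corrects chromosome attachment, was at 19.5, 9.33, 15.3, 12.1 and 6.15 CPM in the BALB/c tumours and 55.9, 81.2, 76.0, 66.6 and 104 CPM in the BALB/c DTC. It was at 44.7, 55.7, 39.1, 59.99 and 62.1 CPM in the NSG tumours and 55.0, 69.1, 68.8, 68.0 and 70.4 CPM in the NSG DTC. The BALB/c tumours lay below all others, and the difference was 2.28 ± 0.27, adjusted p = 9.89e-07. The kinetochore gene Spc24 (2.24 ± 0.25, adjusted p = 3.94e-07) was on the same side. Cenpf, a large kinetochore protein (chromosome 1, 189640606 to 189688086), was at 12.9, 8.32, 7.37, 9.71 and 4.92 CPM in the BALB/c tumours and 23.1, 8.64, 15.2, 12.6 and 2.89 CPM in the BALB/c DTC. In NSG mice it was at 9.31, 9.24, 6.94, 7.31 and 9.24 CPM in the NSG tumours and 100.1, 116, 127, 113 and 119 CPM in the NSG DTC. Here the NSG DTC stood far above the other 3 groups, which overlapped, and the difference was -3.25 ± 0.45, adjusted p = 4.95e-06 (-1.81 with offsets, adjusted p = 0.00019). The proliferation marker Mki67 had a similar pattern, with group means of 18.9, 34.2, 16.2 and 247 CPM and a difference of -3.08 ± 0.55, adjusted p = 9.78e-05 (-2.41 with offsets). Cenpf and Mki67 were named from genes that kept their call with offsets. Exons of Cenpf and Mki67 were 15433 and 10061 bases long with 43.5% and 46.7% GC, and those of Aurkb and Spc24 2946 and 2573 bases with 53.3% and 54.6%. The topoisomerase gene Top2a (-0.64 ± 0.47, adjusted p = 0.321) and the checkpoint kinase gene Bub1 (-0.94 ± 0.55, adjusted p = 0.194), were not called, and lay at 0.61 and 0.35 with offsets, also not called.

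**Figure D5:**
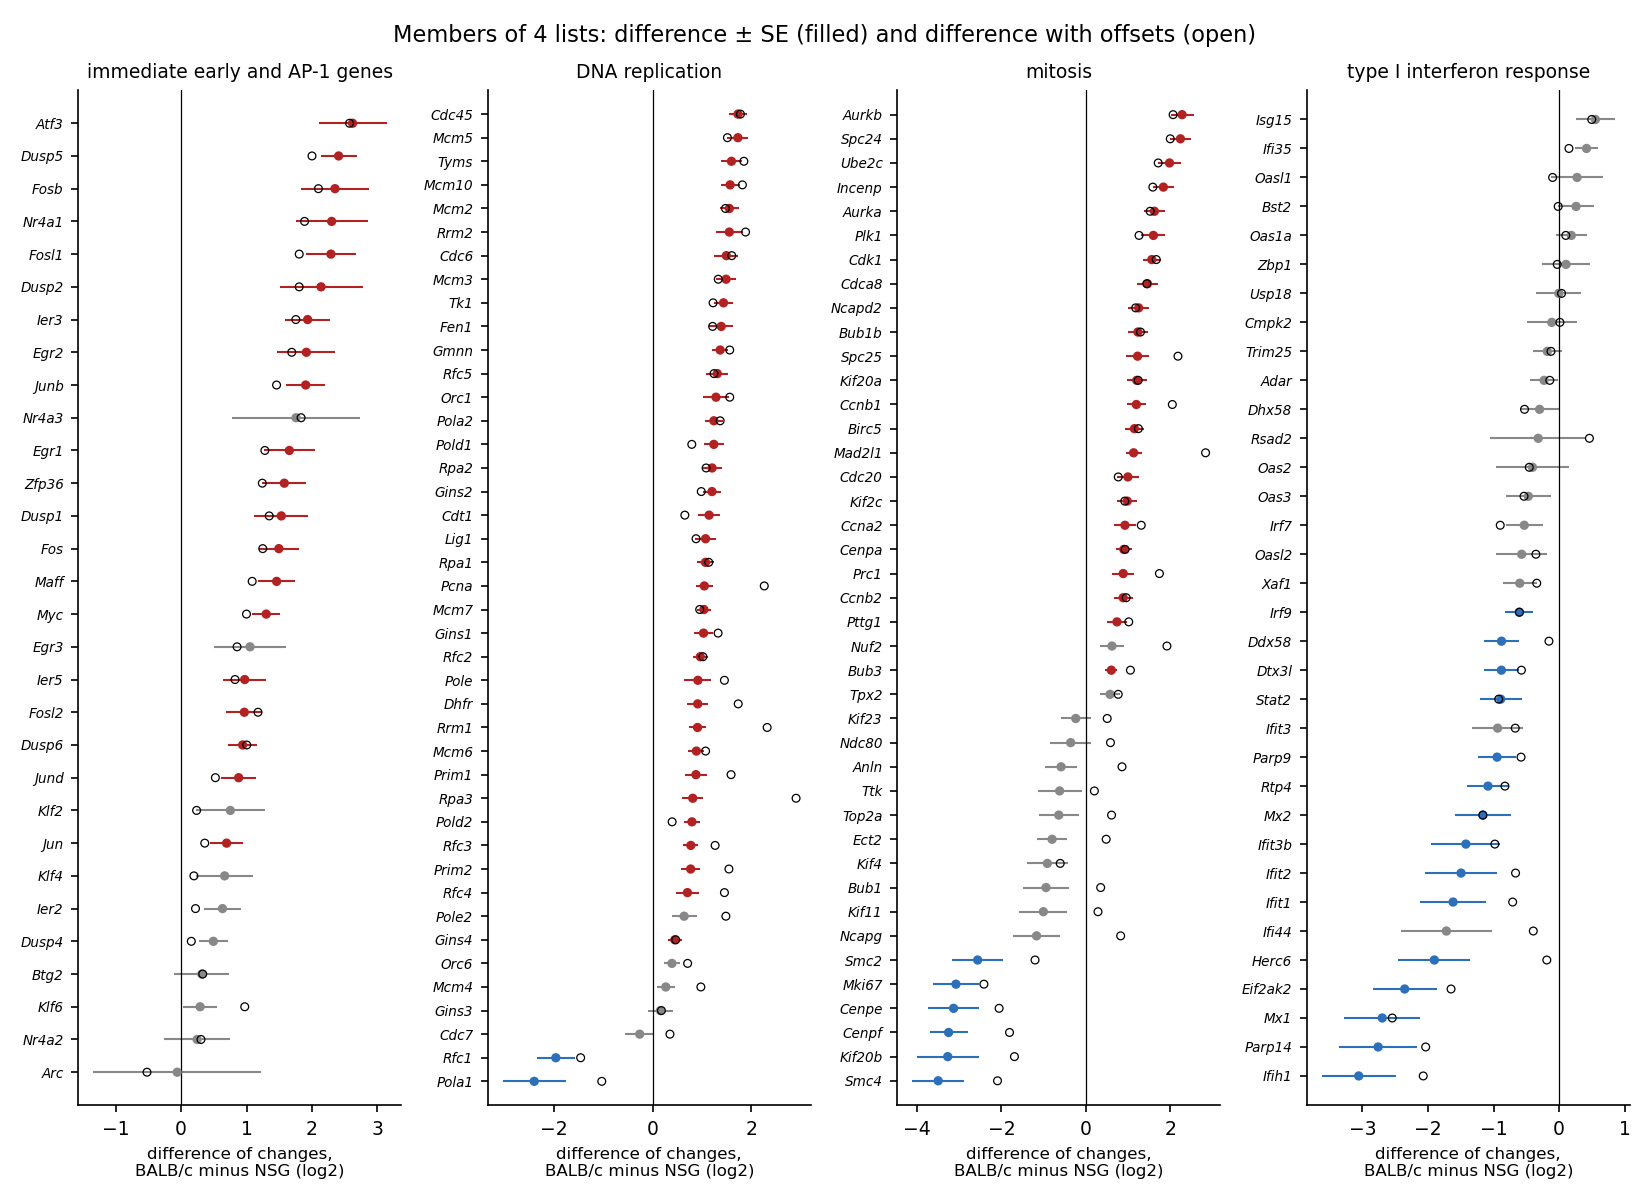
Difference of changes ± SE of each tested member of 4 lists (x axis, log2, BALB/c minus NSG; n = 5 libraries a group), red where called above 0, blue below 0 and grey not called; open circles give the value with offsets. Replication members lie mostly to the right of 0, mitosis members lie on both sides with more called above than below, and the called type I interferon members lie to the left.

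Type I interferon response genes, which restrict viruses and are induced through STAT and IRF factors, had 0 of 34 members above 0 and 15 below (median -0.61). With offsets 0 were above and 9 below (median -0.49), and without any 1 library 10 to 18 were below 0. Ifih1, the RNA sensor MDA5 (chromosome 2, 62595798 to 62646255), was at 22.9, 34.8, 19.2, 8.00 and 22.5 CPM in the BALB/c tumours and 22.4, 9.42, 12.1, 12.8 and 2.37 CPM in the BALB/c DTC. It was at 10.6, 3.59, 4.68, 7.07 and 7.20 CPM in the NSG tumours and 34.5, 29.7, 33.2, 28.3 and 25.4 CPM in the NSG DTC. Levels in the NSG DTC were above those of all NSG tumours and all BALB/c DTC, and the difference was -3.06 ± 0.57, adjusted p = 0.000141 (-2.07 with offsets). The RNA-activated kinase gene Eif2ak2 (-2.36 ± 0.49), the ADP-ribosyltransferase gene Parp14 (-2.76 ± 0.59) and the antiviral GTPase gene Mx1 (-2.70 ± 0.58) were also called below 0, with adjusted p of 0.000438, 0.000635 and 0.000573. Mx1 was low throughout, with group means of 2.91, 3.64, 0.258 and 2.12 CPM in BALB/c tumours, BALB/c DTC, NSG tumours and NSG DTC. The ubiquitin-like gene Isg15 (0.55 ± 0.30, adjusted p = 0.163) and the factor Irf7 (-0.53 ± 0.28, adjusted p = 0.155), of the same list, were not called, but Irf7 was called below 0 with offsets (-0.90, adjusted p = 0.0123). Over the list, the median host difference was 1.49 in tumours and 0.73 in DTC, so the median gap between the hosts was smaller in the lung than in the tumours. Reads of Ifit and Oas family members may be shared between copies, which makes their counts less certain.

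The ISRE motif GAAANNGAA was found in 41.4% of 29 promoters of this list and 7.13% of all promoters. Ifih1 is shown for its place as the largest difference of the list, with the match in capitals (chr2:62646319-62646407, minus strand).
Ifih1: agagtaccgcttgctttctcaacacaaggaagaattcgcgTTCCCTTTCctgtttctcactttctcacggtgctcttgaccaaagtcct

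MHC class II genes had 0 of 10 members above 0 and 3 below, the same counts with offsets and without the 2 BALB/c DTC libraries rich in lung markers. Cd74, the invariant chain that guides class II molecules, was at 2115, 1820.4, 1688, 1039 and 1706 CPM in the BALB/c tumours and 956, 418, 198, 978 and 593 CPM in the BALB/c DTC. It was at 8.16, 13.0, 14.8, 10.5 and 6.02 CPM in the NSG tumours and 7.92, 12.5, 13.1, 11.3 and 8.91 CPM in the NSG DTC. Levels in BALB/c mice were far above those in NSG mice at both stages and lower in every DTC than in any tumour, while NSG tumours and DTC overlapped. The difference was -1.45 ± 0.44, adjusted p = 0.0121. H2-Eb1, a class II beta chain, was at 1617, 1381, 1312, 663 and 1349.8 CPM in the BALB/c tumours and 500.3, 180.1, 78.1, 602 and 289.5 CPM in the BALB/c DTC. It was at 0.630, 1.79, 1.67, 0.688 and 0.753 CPM in the NSG tumours and 1.62, 0.594, 1.18, 0.991 and 0.568 CPM in the NSG DTC. Its difference (-1.83 ± 0.64, adjusted p = 0.0283) rested on these low NSG values and was not called without any of 4 single libraries (adjusted p of 0.0511 to 0.0704). H2-DMa (-1.23 ± 0.41, adjusted p = 0.0219) was called, but neither it (adjusted p = 0.0688) nor H2-Eb1 (adjusted p = 0.072) was with the day 22 BALB/c tumours alone, and H2-Aa (-1.09 ± 0.77, adjusted p = 0.295) and the class II regulator Ciita (-0.34 ± 0.57, adjusted p = 0.701) were not. On log2(TPM + 1) and log2(TPM + 0.1) H2-Aa was called, at -2.04 and -2.03 (adjusted p of 0.0131 and 0.0388). Macrophage and monocyte markers, which include cells that also express class II, ranged in sum over 71.9 to 183 CPM among BALB/c tumours and 97.2 to 719 among BALB/c DTC, against 43.8 to 68.7 among NSG tumours and 67.0 to 132 among NSG DTC. Of 14 tested, 0 were above 0 and 1 below (2 below without the 2 BALB/c DTC libraries rich in lung markers, and 7 with lung markers as a covariate, where their median was -1.80), and their part in the class II levels was not tested. MHC class I genes had 5 of 18 above and 3 below 0 (4 and 2 with offsets). The class I light chain B2m (-0.26 ± 0.17) and heavy chain H2-K1 (0.25 ± 0.17) were not called, the trimming enzyme Erap1 (-1.08 ± 0.30, adjusted p = 0.00653) was called below 0 and the chaperone Calr (0.76 ± 0.15, adjusted p = 0.000195) above 0. With offsets B2m was called above 0 (1.24, adjusted p = 1.07e-05), but on log2(TPM + 1) and log2(TPM + 0.1) it was called below 0 (-0.53 on both, adjusted p of 0.00747 and 0.00726), and Erap1 lay at 0.37, not called. Counts of H2 genes may be shared between paralogs.

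Interferon gamma response genes had 4 of 30 members above 0 (13.3%) and 9 below (30.0%), against 15.0% and 18.4% of all genes. The share above 0 was thus near that of all genes. With offsets 6 were above and 6 below, and the list median turned from -0.34 to 0.06. Irf1, the factor that passes the signal on (1.62 ± 0.27, adjusted p = 3.88e-05), and Socs1, its feedback inhibitor (1.84 ± 0.31, adjusted p = 4.03e-05), were called above 0, with every BALB/c DTC above every NSG DTC. The kinase gene Jak2 (-3.00 ± 0.50, adjusted p = 4.6e-05) and the GTPase gene Iigp1 (-3.47 ± 0.70, adjusted p = 0.000347) were called below 0. Iigp1 had group means of 89.5, 27.6, 0.982 and 3.34 CPM in BALB/c tumours, BALB/c DTC, NSG tumours and NSG DTC.

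Several metabolic lists had most of their calls above 0. Oxidative phosphorylation had 22 of 35 above and 1 below 0 (20 and 0 with offsets), with Atp5b, a subunit of ATP synthase, at 0.92 ± 0.13, adjusted p = 4.04e-06, and cytochrome c, Cycs, at 0.89 ± 0.16, adjusted p = 9.81e-05. Atp5b had group means of 1256, 1894, 1767 and 1405 CPM in the same order. Cholesterol synthesis and uptake had 13 of 23 above and 0 below 0 in both fits, among them its regulator Srebf2 (0.82 ± 0.19, adjusted p = 0.00132) and the enzyme gene Mvd (1.11 ± 0.30, adjusted p = 0.00385). Fatty acid genes had 5 of 21 above and 3 below 0 (7 and 1 with offsets), with the synthase gene Fasn at 1.16 ± 0.19, adjusted p = 3.27e-05. Antioxidant genes had 11 of 21 above and 1 below 0 in both fits. The member below 0 was the cystine transporter gene Slc7a11 (-3.11 ± 0.49, adjusted p = 2.32e-05), with group means of 69.1, 14.4, 29.3 and 52.6 CPM. With offsets its difference was -1.34 (adjusted p = 0.0101), and its fitted change in NSG mice was -0.17 in place of 0.84. The unfolded protein and integrated stress response had 13 of 25 above and 3 below 0, with the serine synthesis gene Psat1 at 1.18 ± 0.20, adjusted p = 4.72e-05 and the endoplasmic reticulum gene Creld2 at 1.21 ± 0.19, adjusted p = 1.78e-05. Cytosolic ribosomal protein genes had 9 of 36 above and 0 below 0 in both fits, but their median of 0.24 was -0.01 on log2(TPM + 1). On that scale the median of all genes moved from -0.05 to -0.16. The median of oxidative phosphorylation moved from 0.51 to 0.28 and that of cholesterol synthesis and uptake from 0.68 to 0.42. Glycolysis had 3 of 19 above and 2 below 0, near the shares of all genes.

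The title of the series names glucocorticoids and Fas, so these genes were followed in every library. Glucocorticoids bind the receptor encoded by Nr3c1, which then turns on genes such as Fkbp5, Tsc22d3, Per1 and Sgk1. Nr3c1 was at 24.8, 21.6, 29.8, 20.9 and 26.0 CPM in the BALB/c tumours and 25.6, 17.9, 13.3, 14.7 and 7.80 CPM in the BALB/c DTC. It was at 21.6, 21.2, 16.9, 21.0 and 19.2 CPM in the NSG tumours and 43.1, 49.4, 60.1, 51.2 and 41.0 CPM in the NSG DTC. Every NSG DTC lay above all other libraries, and the difference was -1.93 ± 0.30, adjusted p = 1.88e-05 (-1.04 with offsets, adjusted p = 0.000169). Fkbp5, a co-chaperone that restrains the receptor, was at 157, 99.0, 163, 108 and 120.1 CPM in the BALB/c tumours and 132, 170.5, 169, 155 and 189 CPM in the BALB/c DTC. In NSG mice it was at 189, 152, 168, 182 and 190.1 CPM in the NSG tumours and 147, 161, 113, 147 and 137 CPM in the NSG DTC. All 4 groups overlapped, and the difference was 0.66 ± 0.17, adjusted p = 0.00353. It missed the threshold on log2(TPM + 1), at 0.42 with adjusted p = 0.0541. Per1 (1.24 ± 0.32, adjusted p = 0.00303) and the kinase gene Sgk1 (1.39 ± 0.30, adjusted p = 0.000643) were called above 0. The leucine zipper gene Tsc22d3 had group means of 54.1, 101, 59.3 and 106 CPM in BALB/c tumours, BALB/c DTC, NSG tumours and NSG DTC and a difference of 0.05 ± 0.29, adjusted p = 0.913; its sign changed under limma-voom (-0.14) and on both TPM scales (-0.22). Over the glucocorticoid-induced list, 8 of 27 members were above 0 and 1 below (7 and 2 with offsets). The death receptor gene Fas, whose ligand T and NK cells carry, was at 15.5, 13.3, 17.1, 18.4 and 26.1 CPM in the BALB/c tumours and 17.1, 15.7, 8.19, 16.7 and 14.2 CPM in the BALB/c DTC. It was at 9.50, 5.25, 6.42, 7.04 and 6.35 CPM in the NSG tumours and 8.54, 5.87, 7.55, 8.47 and 8.18 CPM in the NSG DTC. Fas was higher in every BALB/c tumour than in any NSG tumour, the DTC of the hosts overlapped, and within each host tumours and DTC overlapped. Its difference was not called (-0.49 ± 0.31, adjusted p = 0.243), and it lay on the other side of 0 with offsets (0.46, adjusted p = 0.269). Death receptor and apoptosis genes had 5 of 24 above and 4 below 0 (6 and 3 with offsets), shares near those of all genes. Birc2, an inhibitor of apoptosis, was among those below 0 (-1.98 ± 0.35, adjusted p = 7.74e-05).

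The circadian clock list had 2 of 17 members above 0 and 5 below (2 and 4 with offsets). Clock, the activator at the head of the loop, had a difference of -3.71 ± 0.55, adjusted p = 1.24e-05. Its group means were 19.2, 7.60, 9.17 and 47.4 CPM, in the order of groups used above. The repressor Nr1d2 had a difference of -1.88 ± 0.33, adjusted p = 6.15e-05. With offsets Clock lay at -2.06 and Nr1d2 at -1.02, both called. The clock repressor Bhlhe40, also a hypoxia-induced gene, was on the other side (1.46 ± 0.27, adjusted p = 0.000103). The hypoxia response had 3 of 24 above and 6 below 0, and 1 and 4 with offsets. The demethylase gene Kdm3a (-1.62 ± 0.22, adjusted p = 3.44e-06) and the disulfide oxidase gene Ero1l (-1.74 ± 0.40, adjusted p = 0.00118) were called below 0. With offsets Kdm3a lay at -0.76 and was called, and Ero1l was not called (-0.59). Car9, a carbonic anhydrase, was not called (-1.07 ± 0.43, adjusted p = 0.0557), but was called with offsets (-1.35), by DESeq2, on both TPM scales and without any of 4 single libraries (BALB/c tumour 2, 4 or 5 or BALB/c DTC 5, -1.19 to -1.31).

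Epithelial junctions and keratins had 11 of 25 above and 3 below 0 (7 and 2 with offsets), with the keratin gene Krt8 at 1.07 ± 0.19, adjusted p = 9.08e-05 and group means of 2684, 4073, 3834 and 2771 CPM. YAP and TGF-beta targets had 8 of 20 above and 4 below 0 (6 and 2 with offsets). The plasminogen activator gene Plau, of the mesenchymal and matrix list (7 of 29 above and 1 below 0), had a difference of 1.75 ± 0.26, adjusted p = 8.11e-06. Heat shock chaperones had 5 of 17 above and 4 below 0, and immune checkpoint and NK ligands 3 of 17 above and 5 below (7 and 2, and 5 and 2, with offsets). The list medians of these 2 changed sign with offsets, from -0.21 to 0.03 and from -0.13 to 0.35.

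The largest differences above 0 among genes of a mean log2 CPM of at least 3 that kept their call with offsets and without each library were those of Ovol1 (3.67 ± 0.56), Csf3, Fam83a (2.79 ± 0.33), Lif, Cxcl2, Atf3, Fam83d (2.60 ± 0.31), Csrnp1, Dusp8 and Cdkn1a. Ovol1 encodes a zinc finger transcription factor of epithelial cells (chromosome 19, 5549136 to 5560646). It was at 1.96, 4.90, 2.00, 9.55 and 7.31 CPM in the BALB/c tumours and 27.9, 20.2, 27.1, 25.6 and 43.2 CPM in the BALB/c DTC. It was at 69.5, 59.4, 69.7, 93.6 and 89.3 CPM in the NSG tumours and 33.5, 33.0, 31.5, 38.0 and 32.1 CPM in the NSG DTC. NSG tumours were highest and BALB/c tumours lowest without overlap between any tumour and DTC of a host, and the DTC of the hosts overlapped (adjusted p = 1.92e-05). Its host difference was -4.14 in tumours and -0.27 in DTC. Fam83d, a spindle protein, and Fam83a, a signalling scaffold, were also lowest in the 5 BALB/c tumours. The median GC content of the exons of these 10 genes was 54.0%, above the 50.1% of all genes. Their median length was 3480 bases, near the 3662 bases of all genes.

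By the same rule, the 10 largest differences below 0 were those of Nbeal1 (-4.93 ± 0.54), Dio2, Ranbp2 (-4.69 ± 0.57), Atrx (-4.60 ± 0.56), Vps13a (-4.53 ± 0.61), Zfp292 (-4.43 ± 0.47), Rb1cc1 (-4.41 ± 0.53), Washc4 (-4.40 ± 0.54), Phip (-4.39 ± 0.55) and Kitl. Ranbp2 is a protein of the nuclear pore, Atrx a chromatin remodeler, Vps13a a lipid transfer protein, Rb1cc1 a protein that starts autophagy and Washc4 a part of the endosomal WASH complex. Their exons had a median GC content of 40.2% and a median length of 13209 bases. With offsets the differences were -2.20 for Nbeal1, -2.93 for Ranbp2, -2.47 for Atrx and -1.72 for Phip. All 10 were called there because the rule required it. Dio2 encodes the deiodinase that activates thyroid hormone (chromosome 12, 90724552 to 90738438). Its level was 59.0, 94.5, 64.9, 29.4 and 129 CPM in the BALB/c tumours and 29.4, 12.6, 17.4, 17.7 and 5.19 CPM in the BALB/c DTC. It was 17.1, 6.65, 7.51, 11.4 and 10.7 CPM in the NSG tumours and 74.0, 58.9, 72.6, 58.1 and 71.4 CPM in the NSG DTC. Within NSG mice every DTC was above every tumour, and within BALB/c mice 4 DTC were well below every tumour while the highest, at 29.35 CPM, was next to the lowest tumour, at 29.4 CPM. The difference was -4.85 ± 0.50, adjusted p = 3.13e-07 and -3.86 with offsets. Kitl, the ligand of the receptor Kit, was at 112, 216, 109, 51.2 and 205 CPM in the BALB/c tumours and 35.2, 14.9, 20.5, 14.6 and 3.56 CPM in the BALB/c DTC. In NSG mice it was at 52.7, 30.2, 29.3, 39.5 and 32.7 CPM in the NSG tumours and 104, 87.8, 129, 84.6 and 83.8 CPM in the NSG DTC. Every DTC was below every tumour in BALB/c mice and above every tumour in NSG mice, with a difference of -4.38 ± 0.56, adjusted p = 2.34e-06 (-3.21 with offsets).

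Large differences below 0 were also seen for Ibsp and Gpnmb, whose fitted changes were -5.18 ± 0.44 and -3.79 ± 0.38 (SE) in BALB/c mice against -1.61 ± 0.37 and -0.21 ± 0.34 in NSG mice. Ibsp, bone sialoprotein, had group means of 55.6, 1.55, 47.0 and 15.4 CPM in BALB/c tumours, BALB/c DTC, NSG tumours and NSG DTC and a difference of -3.57 ± 0.55, adjusted p = 1.78e-05. Gpnmb, a transmembrane glycoprotein, had means of 52.4, 3.79, 7.17 and 6.20 CPM and a difference of -3.58 ± 0.50, adjusted p = 5.41e-06. Every BALB/c DTC was below every BALB/c tumour for both, and the NSG groups overlapped for Gpnmb but not for Ibsp.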

How the data were processed

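The values are counts per gene and TPM, both deposited by the authors for all 30 libraries. Per the submitters' processing notes, reads were trimmed with Trimmomatic 0.36 and aligned with STAR 2.5.2b to GRCm38 (mm10); the counting tool, its strand setting and the annotation are not given in the sources used here. Of 49315 gene identifiers, 49056 were in GENCODE M21, which gave GC content and length.

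Genes were filtered by edgeR's filterByExpr (17774 kept, with 99.969% of counts), scaled by TMM and fitted with edgeR 4.0.16 (quasi-likelihood, robust, 1 mean for each of 6 groups, 24 residual degrees of freedom, R 4.3.3). The difference of changes was 1 contrast of 4 groups, with Benjamini-Hochberg adjustment over all genes. The median biological coefficient of variation was 0.269. CPM used the TMM library sizes. Alternatives were RLE scaling, no filter, DESeq2 1.42.0, limma-voom (limma 3.58.1), only the 20 libraries, GC and length offsets (spline, 5 degrees of freedom), a lung marker covariate, log2(TPM + 1), log2(TPM + 0.1), a test against a 1.5-fold difference, day 22 BALB/c tumours, no lung-rich libraries, and each library left out.

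The comparison, the 26 programme lists and the 12 marker lists were chosen with earlier results of these data known. Named genes are those the series title points to, the 10 largest differences in each direction that kept their call with offsets and without each library (mean log2 CPM of at least 3), up to 4 called and 2 uncalled members per list, and up to 4 further genes per pattern; those printed were picked among them after values were seen, as were Mcm6, Pola1 and Rfc1. Promoters came from RefSeq (GRCm38.p6). Motifs were also searched for other lists and are not shown. Among these, the AP-1 motif TGANTCA was in 0 of 29 promoters of the immediate early list, against 6.75% of all promoters. The other motifs were more frequent in their lists than in all promoters.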

Additional observations from a re-analysis of the deposited data

Results flagged for a closer look

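The interaction of host and stage is itself a test of a difference between the hosts, so each called gene whose difference is given in the text is listed with its difference of changes (log2, BALB/c minus NSG; edgeR quasi-likelihood test, Benjamini-Hochberg adjusted over all genes; n = 5 libraries a group). Of 92 such genes, 78 were called. The largest values above 0 were those of Ovol1 (3.67), Csf3 (2.80), Fam83a (2.79), Lif (2.78), Cxcl2 (2.67), Atf3 (2.62), Fam83d (2.60), Csrnp1 (2.59), Dusp8 (2.53), Cdkn1a (2.43), Dusp5 (2.41), Fosb (2.35), Tnfaip3 (2.34), Fosl1 (2.29), Aurkb (2.28), Spc24 (2.24), Nfkbia (2.19). Values of middle size above 0 were those of Gadd45b (1.93), Junb (1.90), Socs1 (1.84), Plau (1.75), Cdc45 (1.73), Mcm5 (1.73), Irf1 (1.62), Cdk1 (1.56), Fos (1.49), Bhlhe40 (1.46), Sgk1 (1.39), Nfkb2 (1.32), Myc (1.30). Trac (1.84) and Il2rb (1.44) were also above 0. The smallest values above 0 were those of Per1 (1.24), Creld2 (1.21), Psat1 (1.18), Fasn (1.16), Mvd (1.11), Krt8 (1.07), Atp5b (0.92), Cycs (0.89), Mcm6 (0.89), Srebf2 (0.82), Calr (0.76), Fkbp5 (0.66). The largest values below 0 were those of Nbeal1 (-4.93), Dio2 (-4.85), Ranbp2 (-4.69), Atrx (-4.60), Vps13a (-4.53), Zfp292 (-4.43), Rb1cc1 (-4.41), Washc4 (-4.40), Phip (-4.39), Kitl (-4.38), Clock (-3.71), Gpnmb (-3.58), Ibsp (-3.57), Iigp1 (-3.47), Cenpf (-3.25), Slc7a11 (-3.11), Mki67 (-3.08), Ifih1 (-3.06). Smaller values below 0 were those of Jak2 (-3.00), Parp14 (-2.76), Mx1 (-2.70), Eif2ak2 (-2.36). Pola1 (-2.40) and Rfc1 (-1.96) were also below 0. The values closest to 0 from below were those of Birc2 (-1.98), Nr3c1 (-1.93), Nr1d2 (-1.88), H2-Eb1 (-1.83), Ero1l (-1.74), Kdm3a (-1.62), Ccng1 (-1.49), Cd74 (-1.45), H2-DMa (-1.23), Erap1 (-1.08).

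Single libraries were compared with the other 4 of their group by Dixon's ratio (critical value 0.71) for 18 genes in 4 groups, 72 comparisons in all, of which chance alone flags about 1 in 20. In 3 of them 1 library lay far from the others: Atf3 at 1008 CPM in 1 BALB/c DTC, Cdkn1a at 66.4 CPM in 1 NSG tumour and Aurkb at 55.1 CPM in 1 NSG DTC. The calls of these 3 genes were kept without each of the 20 libraries, but each gene met a naming rule that required this.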

How the results depend on the processing

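The main counts were 2670 genes above 0 and 3274 below. Tested against a 1.5-fold difference they were 532 and 1899, with offsets 1675 were below 0, and on log2(TPM + 1) and log2(TPM + 0.1) 1396 and 1359 were above 0. Leaving out 1 library gave 2365 to 2888 above and 3008 to 3519 below. The other settings stayed within 1.5 times of both counts. Of 78 genes named and called, 64 kept their call in every setting, 76 without each library and 73 with offsets. Part of these genes were named by a rule that required the last 2, so these counts were partly fixed in advance. Among all 5944 calls, 4789 were kept without each library and 3129 with offsets. Signs changed with offsets for Fas (0.46), Ccng1 (0.094), Top2a (0.61), Bub1 (0.35), Erap1 (0.37), B2m (1.24, adjusted p = 1.07e-05, but -0.53 and called on both TPM scales) and H2-K1 (-0.053), where removal of the trend with GC content and length is the only step that differs. The sign of Tsc22d3 changed under limma-voom (-0.14), on log2(TPM + 1) and log2(TPM + 0.1) (-0.22 on both), and with 1 library left out it ran from -0.19 to 0.14, below 0 without replicate 3 or 4 of the BALB/c tumours (-0.01 for each) or replicate 5 of the DTC from BALB/c mice; the cause was not tested. No paired analysis was possible because the labels give the groups no shared replicate numbers. Leaving out gene-poor libraries was not run, since 0 libraries met its rule. Depth limits genes near 1 CPM most, such as H2-Eb1 in NSG mice.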

Other observations

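Gene families that no list covered were counted after the values of their members had been seen, so they are descriptions. Of 47 proteasome subunit genes, which encode the protease that degrades ubiquitin-tagged proteins, 27 were called above 0 and 2 below (32 and 1 with offsets), with a median difference of 0.44. Of 78 mitochondrial ribosomal protein genes, which serve translation in mitochondria, 46 were called above 0 and 1 below (40 and 0 with offsets), with a median of 0.49. Their median host difference was -0.07 in tumours and 0.40 in DTC, and that of the proteasome genes -0.06 and 0.37. Of 326 zinc finger protein genes, most of them presumed regulators of transcription, 10 were called above 0 and 184 below (11 and 120 with offsets). Their median difference was -1.53, and -0.86 with offsets, and their exons had a median GC content of 45.4% against 50.1% for all genes. Among all 17746 genes with a unique name, 2670 were called above 0 and 3268 below. Zinc finger genes share sequence, so reads may be divided between them.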
